A study of Mus musculus with 8 samples.

Results

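The synaptonemal complex and the meiotic form of cohesin are the structures that hold homologous chromosomes and sister chromatids together in meiotic prophase. The genes described here are 9 that encode their parts in mouse, Sycp1, Sycp2, Sycp3, Syce1, Syce2, Tex12, Rec8, Stag3 and Smc1b, taken by gene symbol from a table of 18097 genes. Of the 9, 8 had a row in the table and 5 were measured above background. Syce1, a central element protein, had no row that was used here.

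Expression was read on Illumina whole-genome BeadChips, single-colour arrays on which the fluorescence of beads reports the RNA that binds their probe, in whole testes at 17.5 days post partum (dpp). The XEO,Sry males (4 animals) lacked any Zfy gene, had a single X chromosome and carried Sry and Eif2s3y as transgenes. The XE,Z2O,Sry males (4 animals) had the same X chromosome dose and both of these transgenes, and in addition an X-linked Zfy2 transgene. Sry directs male development, Eif2s3y drives spermatogonial proliferation, and Zfy2 encodes a zinc finger protein of the Y chromosome. All animals were XO on the MF1 background, so no animal had a Y chromosome, and the groups model the loss of Zfy in a testis that also lacks the other Y genes. Each array held the RNA of 1 animal. The question addressed was how the lack of Zfy alters transcript levels in the testis when its most advanced spermatocytes are late in meiotic prophase.

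The arrays detected 8063 to 8434 genes each, and 8324 genes that were detected on at least 4 of the 8 arrays were tested. The transgene status could not be checked with the Zfy2 and Sry probes, which were not above background on any of the 8 arrays. Eif2s3y was detected on all 8. The Zfy1 row, also not detected on any array, read 6.13 to 6.28 in XEO,Sry and 6.50 to 6.77 in XE,Z2O,Sry. Whether its probe reads the Zfy2 transgene was not tested. Of 20 pachytene marker genes, 12 passed the detection filter and all 12 had lower means in XEO,Sry, with a median log2 difference of -1.51. Their mean log2 signal ran between 8.87 and 10.83 in the XEO,Sry animals and between 10.74 and 12.01 in the XE,Z2O,Sry animals. In RNA of the whole testis, fewer cells of a type and less RNA per cell cannot be told apart.

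In meiotic prophase each chromosome folds into loops along a protein axis. The axis is built on cohesin, a ring that encloses sister chromatids, in which the meiotic subunits Rec8, Stag3 and Smc1b take the places that Rad21, Stag1 or Stag2, and Smc1a hold in mitotic cells. Sycp2 and Sycp3 coat this axis to form the lateral element, Sycp1 spans the gap between the axes of homologs as the transverse filament, and Syce1, Syce2 and Tex12 belong to the central element where the filaments from both sides meet. In mouse, males without any of several of these proteins arrest in meiotic prophase.

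The promoters of 4 of the 5 measured genes are shown as examples of sequence words that germ cell genes often share. That of Rec8, whose annotated gene begins before the start that its promoter was taken from, is not shown. The same holds for Stag3, which is shown. Its annotated gene begins at position 138272514, so the stretch printed lies inside that gene. RefSeq (GRCm38.p6) gave 10 promoters for the 9 genes, since Syce2 has more than 1 start. The words searched on both strands over 250 bases before to 50 bases after the start were GCGGGA, which reads TCCCGC on the other strand, the longer GGCGGGAA that contains it, the E-box CACGTG, the cyclic AMP element core TGACG, and the CAAT box in the form CCAAT. The word TCCCGC is the core of sites bound by E2F6, which in mouse somatic cells represses germ cell genes, and the E-box is bound by basic helix-loop-helix proteins such as Mga. GCGGGA stood in at least 1 promoter of 7 of the 9 genes, Rec8 included, against 22% of the 27025 genes of the table counted in the same way and 20% of its 32851 single promoters. CACGTG stood in those of 5 of the 9 genes (Sycp1, Sycp3, Syce2, Tex12 and Stag3), against 8.09% of genes and 7.15% of promoters. For Syce2 it stood only in the promoter of the downstream start, whereas the stretch printed here belongs to the upstream start. GGCGGGAA was found for 2 genes (2.52% of genes and 2.19% of promoters in the table), TGACG for 2 (23% and 20.8%) and CCAAT for 4 (41.1% and 37.4%). These matches are descriptions of letters and not of bound sites. In the stretches that follow, which run 5′ to 3′ on the gene's own strand over 180 bases before and 10 bases after the start, TCCCGC and CACGTG are in capitals.
Sycp1, chr3:102936091-102936280, minus strand: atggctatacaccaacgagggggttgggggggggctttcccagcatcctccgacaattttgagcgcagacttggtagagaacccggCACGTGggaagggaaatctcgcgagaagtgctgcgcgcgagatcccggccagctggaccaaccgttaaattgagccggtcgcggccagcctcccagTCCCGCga
Syce2, chr8:84871931-84872120, plus strand: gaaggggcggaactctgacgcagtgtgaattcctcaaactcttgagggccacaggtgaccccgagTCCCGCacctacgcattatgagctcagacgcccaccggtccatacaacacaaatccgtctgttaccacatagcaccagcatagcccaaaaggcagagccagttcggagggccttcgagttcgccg
Stag3, chr5:138280329-138280518, plus strand: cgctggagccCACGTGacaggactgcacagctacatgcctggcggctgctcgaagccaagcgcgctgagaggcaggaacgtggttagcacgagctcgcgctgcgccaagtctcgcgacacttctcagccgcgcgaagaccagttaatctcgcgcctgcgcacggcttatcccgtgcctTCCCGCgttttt
Smc1b, chr15:85131948-85132137, minus strand: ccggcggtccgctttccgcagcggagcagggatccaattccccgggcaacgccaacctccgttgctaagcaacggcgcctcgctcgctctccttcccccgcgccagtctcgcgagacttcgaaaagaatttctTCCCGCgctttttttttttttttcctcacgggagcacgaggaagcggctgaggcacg

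None of the 5 measured genes passed the test between XEO,Sry and XE,Z2O,Sry testes, where 5 of 8324 genes (0.0601%) passed at an adjusted p under 0.05 by limma with Benjamini-Hochberg adjustment. The means of Rec8 and Smc1b were higher in XEO,Sry, those of Syce2 and Stag3 were lower, and that of Sycp1 was nearly level. The largest difference, that of Rec8, was 1.31-fold, and 0 of the 5 differed by over 1.5-fold, against 7.6% of all genes tested. At an unadjusted p under 0.05 the count was 1 of 5, Rec8, against 24.8% of all genes (12.9% higher and 12% lower in XEO,Sry). The 4 values of one genotype overlapped with those of the other for all 5, whereas 10.9% of all genes had no overlap. The median difference of the 5 was 0.02 on the log2 scale, beside 0.07 over all genes tested, with 2 of 5 lower and 3 of 5 higher in mean, against 38% and 62% of all genes.

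**Figure D1:**
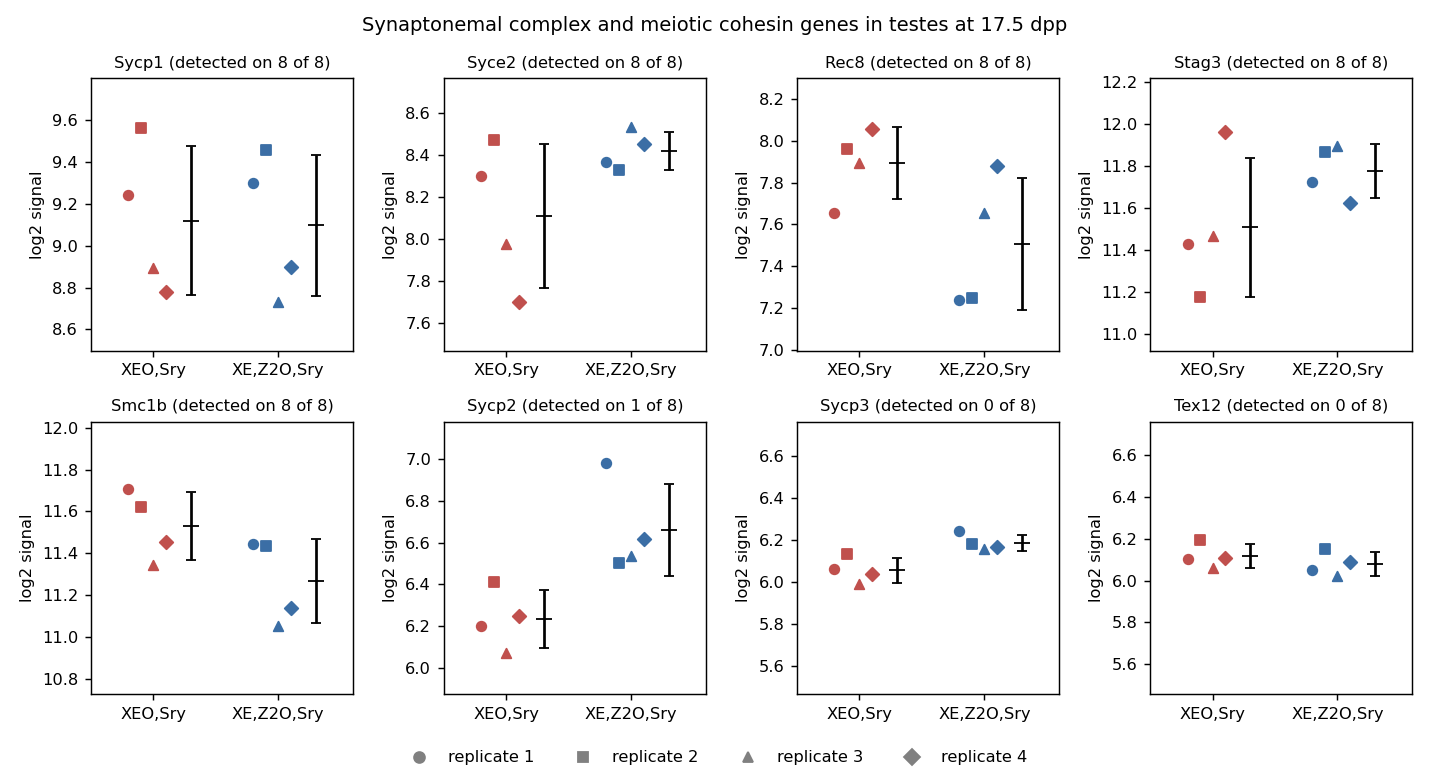
Deposited log2 signal (y axis, the same span of log2 units in every panel) of the 8 synaptonemal complex and meiotic cohesin genes with a row in the table, with a point for each animal shaped by replicate number and the mean ± SD of 4 animals in black beside them, XEO,Sry left and XE,Z2O,Sry right. The genotypes overlap for the 5 genes detected on 8 arrays (Sycp1, Syce2, Rec8, Stag3 and Smc1b), and the signals of Sycp3 and Tex12, detected on 0 arrays, all lie under 6.3.

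Of the synaptonemal complex proper, Sycp1 and Syce2 were measured on all 8 arrays. The log2 signal of Sycp1 was 9.24, 9.56, 8.89 and 8.78 in XEO,Sry replicates 1 to 4, against 9.30, 9.46, 8.73 and 8.90 in XE,Z2O,Sry replicates 1 to 4. In both genotypes replicates 1 and 2 were above replicates 3 and 4, and each genotype covered nearly the range of the other. The means were 9.12 ± 0.356 and 9.10 ± 0.337 (SD, n = 4 each), with a difference of 0.02 (SE 0.211, 95% interval -0.45 to 0.50, adjusted p = 0.954 by limma). This spread was wide, since the median SD over all genes tested was 0.180 in XEO,Sry and 0.173 in XE,Z2O,Sry.

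Syce2 gave 8.30, 8.47, 7.97 and 7.70 in XEO,Sry, against 8.37, 8.33, 8.53 and 8.45 in XE,Z2O,Sry. XEO,Sry replicates 1, 3 and 4 lay below all XE,Z2O,Sry animals, while XEO,Sry replicate 2 lay among them. The means were 8.11 ± 0.343 in XEO,Sry and 8.42 ± 0.0903 in XE,Z2O,Sry, a difference of -0.31 (SE 0.161, interval -0.67 to 0.05, adjusted p = 0.259 by limma). With 1 animal left out the difference ran between -0.43 (adjusted p = 0.301 by limma), without XEO,Sry replicate 2, and -0.17 (adjusted p = 0.410), without XEO,Sry replicate 4.

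The rows of the lateral element genes were dim. Which transcripts their probes read could not be checked, so these signals do not show that the transcripts were scarce. Sycp2 was detected on 1 array, that of XE,Z2O,Sry replicate 1, and did not pass the filter. Its signal was 6.20, 6.41, 6.07 and 6.25 in XEO,Sry, against 6.98, 6.50, 6.53 and 6.62 in XE,Z2O,Sry. All 4 XEO,Sry values lay below all 4 XE,Z2O,Sry values, but the share of dim rows that separate likewise was not counted. Since 7 of the 8 values were not above background, no fold is given. In the fit without a detection filter it had an adjusted p of 0.177 by limma.

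Sycp3 is the lateral element protein most used to mark meiotic axes, and its row stayed at background throughout. The detection p-values were between 0.422 and 0.957. It read 6.06, 6.13, 5.99 and 6.04 in XEO,Sry and 6.24, 6.18, 6.16 and 6.17 in XE,Z2O,Sry, without overlap, although none of these values was above background. How many other rows at background were without overlap was not counted. The Tex12 row was also at background, and the same limit on its probe holds. It read 6.10, 6.20, 6.06 and 6.11 in XEO,Sry and 6.05, 6.15, 6.02 and 6.09 in XE,Z2O,Sry. The lowest signal of any detected gene was 6.36 to 6.42 depending on the array. The detection p-value did not follow signal for every gene, and 174 genes that were detected on no array had a higher mean signal than Rec8.

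The 3 meiotic cohesin genes were measured on all 8 arrays, and their mean differences did not share a sign. Rec8, the kleisin that closes the meiotic ring, gave 7.66, 7.96, 7.90 and 8.06 in XEO,Sry, against 7.24, 7.25, 7.65 and 7.88 in XE,Z2O,Sry. XE,Z2O,Sry replicates 1 and 2 were the lowest of the 8 animals, and XE,Z2O,Sry replicate 4 lay within the XEO,Sry range. The mean was 7.89 ± 0.171 in XEO,Sry and 7.50 ± 0.315 in XE,Z2O,Sry, a difference of 0.39 (SE 0.162, interval 0.02 to 0.75), with an unadjusted p of 0.0403 and an adjusted p of 0.184 by limma. Of all genes tested, 82.6% had a smaller difference in size.

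Stag3, the meiotic stromalin, gave 11.43, 11.17, 11.47 and 11.96 in XEO,Sry, against 11.73, 11.87, 11.90 and 11.62 in XE,Z2O,Sry. XEO,Sry replicates 1, 2 and 3 lay below all XE,Z2O,Sry animals, and XEO,Sry replicate 4 was the highest of the 8. The mean was 11.51 ± 0.330 in XEO,Sry and 11.78 ± 0.129 in XE,Z2O,Sry, a difference of -0.27 (SE 0.161, interval -0.63 to 0.09, adjusted p = 0.310 by limma). With 1 animal left out the difference ran between -0.42 (adjusted p = 0.0653 by limma), without XEO,Sry replicate 4, and -0.16 (adjusted p = 0.580), without XEO,Sry replicate 2. Leaving out replicate 4 of both genotypes was chosen after seeing their pachytene marker values, so that fit is description only. In it the difference of Stag3 was -0.48 and passed the threshold (adjusted p = 0.0343 by limma), as did 19.3% of all genes.

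Smc1b, the meiotic form of a cohesin ATPase, gave 11.71, 11.62, 11.34 and 11.45 in XEO,Sry, against 11.45, 11.43, 11.05 and 11.14 in XE,Z2O,Sry. As for Sycp1, replicates 1 and 2 were above replicates 3 and 4 in both genotypes, an order found in 11.5% of all genes tested. XEO,Sry replicate 3 alone lay within the XE,Z2O,Sry range. The mean was 11.53 ± 0.163 in XEO,Sry and 11.27 ± 0.201 in XE,Z2O,Sry, a difference of 0.26 (SE 0.128, interval -0.02 to 0.55, adjusted p = 0.233 by limma).

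Rec8 and Stag3 thus had mean differences of opposite sign, and their difference within an array is given as a description, the pair having been chosen after the values were seen. Stag3 minus Rec8 was 3.77, 3.21, 3.57 and 3.91 log2 units in XEO,Sry, against 4.49, 4.62, 4.25 and 3.74 in XE,Z2O,Sry. XE,Z2O,Sry replicate 4 fell inside the XEO,Sry range and the other XE,Z2O,Sry animals were above it. Signals of different probes are not on a common scale, so only the change of such a difference between animals can be read, not its size.

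The levels of the 5 genes were far closer between animals than those of the pachytene markers. The mean of the 5 per animal ran between 9.51 and 9.76 in XEO,Sry and between 9.57 and 9.67 in XE,Z2O,Sry, a span of 0.24 over the 8 arrays, whereas the pachytene mean spanned 3.14. Differences of both signs enter the mean of the 5. A small span was not particular to them, since the means of the other gene lists given below spanned 0.20 (early prophase) to 1.21 (peritubular). Each of the 5 spanned 0.65 to 0.83. The SDs in XEO,Sry of Sycp1, Syce2 and Stag3 (0.356, 0.343 and 0.330) were above the upper quartile over all genes tested, 0.269. Those of Rec8 and Smc1b (0.171 and 0.163) were below it. The lower ends of the 5 intervals, of which the lowest was -0.67 for Syce2, were all above the pachytene median of -1.51. The intervals of Syce2 and Stag3 reached the smallest of the 12 pachytene differences, -0.63 for Hspa2, and the other 3 did not. That median and that smallest difference describe a list chosen by known expression in pachytene cells and not from these genes. The list was drawn up with earlier results of these data known, so it is not an independent yardstick. None of the 12 pachytene markers passed the adjusted threshold, and 11 were lower at an unadjusted p under 0.05, against 12% of all genes tested. Between the animals numbered 4 the pachytene means were 10.83 in XEO,Sry and 10.74 in XE,Z2O,Sry, so the order of the genotypes was turned there. XEO,Sry replicate 4 was also the animal with the highest Stag3 and the lowest Syce2.

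**Figure D2:**
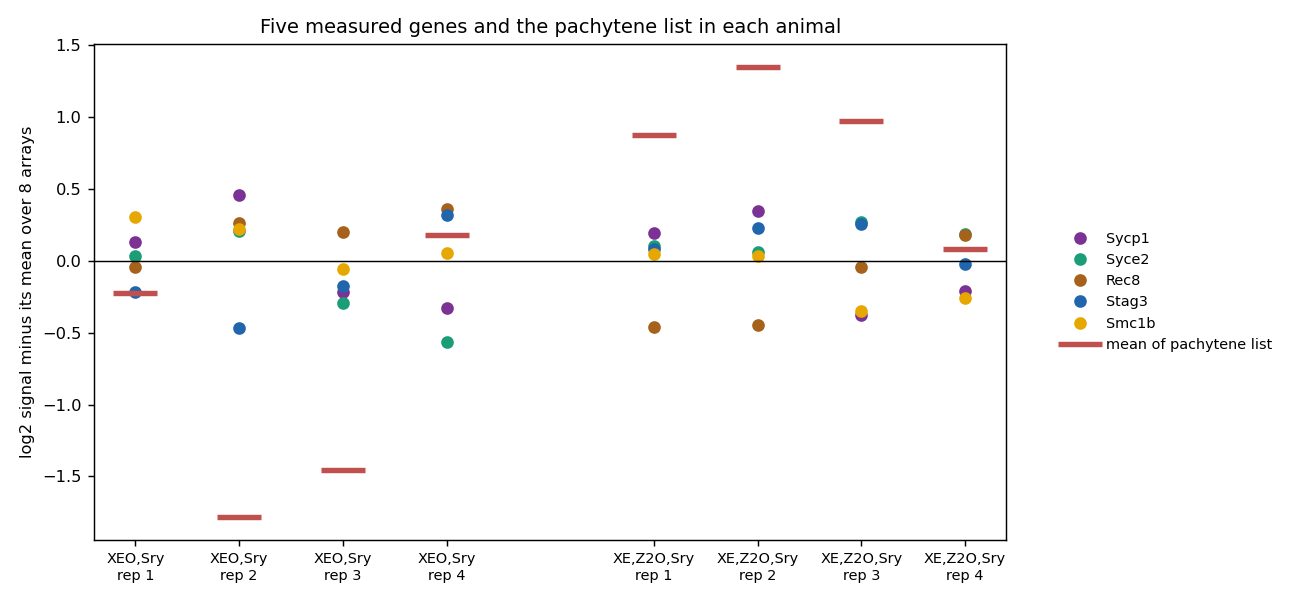
Log2 signal minus its mean over the 8 arrays (y axis) in each animal (x axis, XEO,Sry left, XE,Z2O,Sry right), with a point for each of the 5 measured genes and a red bar for the mean of the 12 pachytene markers. The single genes span at most 0.83 over the 8 animals, while the pachytene mean spans 3.14 and is lowest in XEO,Sry replicate 2.

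Markers of other cells were read beside these values. The median difference was 0.02 over 7 early prophase genes (range -0.57 to 0.33) and 0.17 over 8 spermatogonial genes (range -0.89 to 0.45). It was 0.06 over 3 general germ cell genes, 0.23 over 9 Sertoli cell genes, 0.02 over 5 Leydig cell genes, 0.29 over 3 peritubular genes and 0.31 over 7 macrophage genes that passed the filter. No gene of these lists passed the adjusted threshold. The genes of these lists at an unadjusted p under 0.05 by limma are named after their values were seen. Spo11 (-0.57) and Msh4 (-0.44) in early prophase and Id4 (-0.89) among spermatogonial genes were lower, against 12% of all genes tested. Mei1 (0.24) in early prophase and Mrc1 (0.56) among macrophage genes were higher, against 12.9%. For Id4 the genotypes did not overlap, as for 10.9% of all genes tested. The part of cell composition in the values of the synaptonemal complex and cohesin genes was not tested.

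Each meiotic cohesin subunit was set against its mitotic counterpart within the same animal. Of 6 further genes of the cohesin core, 5 had a row and 2, Stag2 and Smc1a, passed the filter, while Rad21 was detected on 0 arrays and Stag1 on 1, so 2 pairs were compared. Stag3 minus Stag2 was 2.08, 1.66, 2.39 and 3.43 log2 units in XEO,Sry, against 2.91, 3.34, 3.35 and 2.99 in XE,Z2O,Sry. XEO,Sry replicates 1, 2 and 3 were below all XE,Z2O,Sry animals and XEO,Sry replicate 4 was above them. The mean was 2.39 ± 0.757 in XEO,Sry and 3.15 ± 0.228 in XE,Z2O,Sry, a difference of -0.76 (exact two-sided permutation p = 0.143, adjusted over 2 pairs 0.286, where 0.0286 is the smallest p that 4 against 4 allows). More of this difference came from Stag2 (0.49 higher in XEO,Sry), which is X-linked, than from Stag3 (-0.27).

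Smc1b minus Smc1a was 3.78, 3.48, 3.08 and 3.50 in XEO,Sry and 3.70, 3.83, 3.27 and 3.19 in XE,Z2O,Sry. The genotypes overlapped over nearly their whole range. The means were 3.46 ± 0.290 in XEO,Sry and 3.50 ± 0.315 in XE,Z2O,Sry, a difference of -0.04 (exact two-sided permutation p = 0.886, adjusted 0.886).

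**Figure D3:**
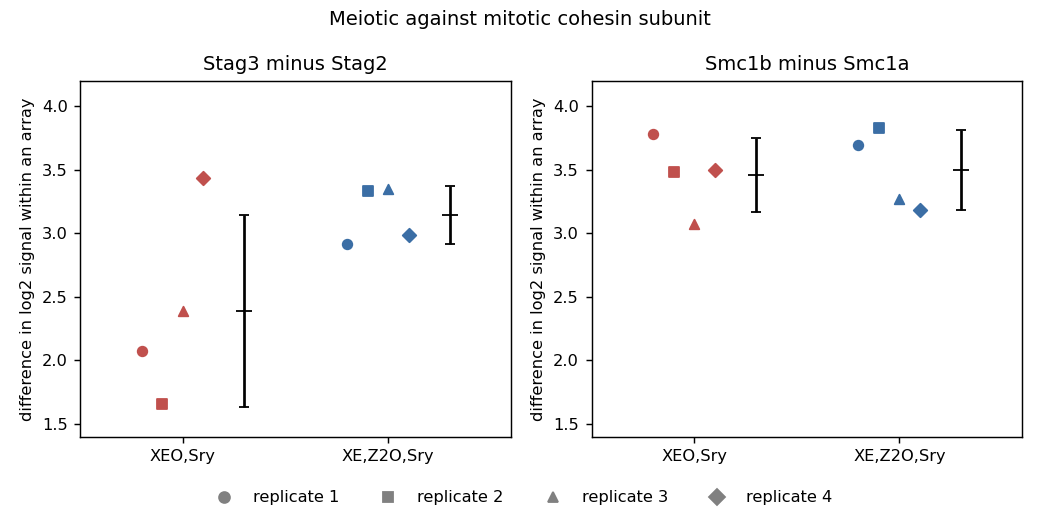
Difference in log2 signal between a meiotic cohesin subunit and its mitotic counterpart on the same array (y axis) for Stag3 minus Stag2 and Smc1b minus Smc1a, with a point per animal shaped by replicate number and the mean ± SD of 4 animals in black, XEO,Sry left and XE,Z2O,Sry right. For Stag3 minus Stag2 the values of 1.66 to 2.39 in 3 XEO,Sry animals lie below all XE,Z2O,Sry animals and that of the other, 3.43, above them.

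Both mitotic subunits are X-linked, and neither passed the adjusted threshold. At an unadjusted p under 0.05 by limma, 12.9% of all genes tested were higher in XEO,Sry. The share among X-linked genes alone was not counted. Stag3 and Smc1b are autosomal, so each pair set an autosomal gene against an X-linked one. Stag2 gave 9.35, 9.51, 9.07 and 8.53 in XEO,Sry, against 8.81, 8.53, 8.55 and 8.63 in XE,Z2O,Sry, a difference of 0.49 (unadjusted p = 0.0346, adjusted p = 0.173 by limma). Smc1a gave 7.93, 8.14, 8.27 and 7.95 in XEO,Sry, against 7.75, 7.60, 7.78 and 7.96 in XE,Z2O,Sry, a difference of 0.30 (unadjusted p = 0.0272, adjusted p = 0.161 by limma). For Stag2, XEO,Sry replicates 1, 2 and 3 were above all XE,Z2O,Sry animals and XEO,Sry replicate 4 was the lowest of the 8, and XE,Z2O,Sry replicate 4 was the only XE,Z2O,Sry animal within the XEO,Sry range of Smc1a. Rad21 had means of 6.46 in XEO,Sry and 6.34 in XE,Z2O,Sry without detection, and Stag1 had means of 7.92 in XEO,Sry and 7.88 in XE,Z2O,Sry. The signal of Stag1, which is autosomal, was thus not lower than that of Rec8 (7.89 and 7.50). Its detection p-values, not its signal, kept it out of the pairs.

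Other genes of synapsis and cohesion also gave no call at the adjusted threshold. Of 7 further axis and central element genes, 4 had a row and 3 passed the filter, with 0 called in either direction. Hormad2, which marks unsynapsed axes, differed by -0.17 (adjusted p = 0.352), Six6os1, a central element protein, by 0.00 (adjusted p = 0.983), and Fkbp6, which binds the synaptonemal complex, by 0.23 (adjusted p = 0.591), all by limma. Hormad1 was not detected on any array.

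Of 14 cohesin regulators, 10 had a row and 8 passed the filter, 3 lower and 5 higher in mean, with a median of 0.08 and 0 called. Pttg1, the securin that restrains separase, had the largest difference at -0.83 (adjusted p = 0.157 by limma). Its signal was 8.02, 7.29, 6.95 and 8.02 in XEO,Sry, against 8.47, 8.96, 8.43 and 7.71 in XE,Z2O,Sry, so XE,Z2O,Sry replicate 4 alone crossed into the XEO,Sry range. Esco2, which acetylates cohesin, differed by 0.47 (adjusted p = 0.209), and Nipbl, which loads cohesin, by -0.33 (adjusted p = 0.163), both by limma. Of 7 genes that tether telomeres to the nuclear envelope, 3 had a row and 2 passed the filter. Sun1 differed by -0.06 and Sun2 by 0.14, and 0 were called. Terb1, a meiotic telomere protein, was not detected on any array.

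**Figure D4:**
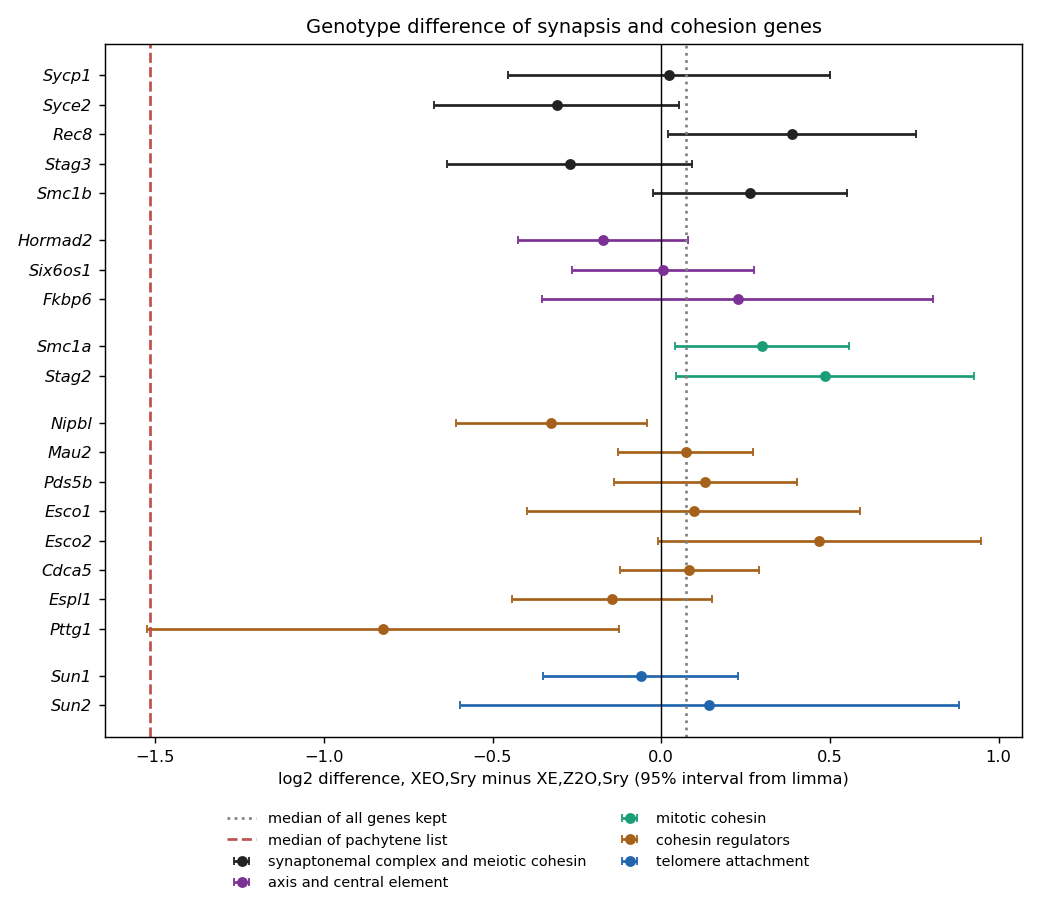
Log2 difference in signal, XEO,Sry minus XE,Z2O,Sry (x axis), with the 95% interval from limma, for the 20 genes of synapsis and cohesion that passed the detection filter, coloured by group. The dotted line is the median of all genes tested, 0.07, and the dashed line the median of the 12 pachytene markers, -1.51. The 5 black intervals (Sycp1 to Smc1b) lie between -0.67 and 0.75, to the right of the dashed line.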

How the data were processed

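Total RNA of whole testis from 8 males, 4 XEO,Sry and 4 XE,Z2O,Sry, was hybridized to 1 Illumina array each. Every comparison was made on the log2 values, 1 per gene and array, that the authors deposited after quantile normalization in Illumina's software. The submitters' processing notes name GenomeStudio 2011.1. The detection p-values deposited by the authors test each signal against negative controls, and genes with a detection p under 0.01 on at least 4 of 8 arrays were kept. The intensity values deposited as non-normalized had array medians of 106 and lay within 0.14 of the normalized ones on the log2 scale, so they were already aligned between arrays. They served, after normexp with an offset of 50 or with a floor of 10 and quantile normalization, as alternatives.

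The genotype effect on each of the 8324 genes kept was fitted by lmFit and eBayes of limma 3.58.1 (R 4.3.3), two-sided, and called at a Benjamini-Hochberg adjusted p under 0.05 over those genes. Pair differences were tested by exact permutation of the 70 assignments. The SDs measure the spread between the 4 animals of a genotype. The SEs and intervals are those of the difference between genotype means. They rest on a variance taken over both genotypes and moderated by limma across genes. The methods state fewer animals per genotype than the labels, and the labels were followed. The script was tested on simulated data. Tables and sequence searches were made in Python 3.11.15 with pandas 2.3.3 and numpy 2.4.6, and plots with matplotlib 3.10.9.

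The genes and gene lists were chosen with earlier results of these data known. All 9 genes are named. From each pathway list the genes past the threshold are named or, where none passed, the 3 with the largest difference, as well as Rad21, Stag1, Stag2 and Smc1a. Hormad1 and Terb1 were named in addition as the rows not detected. Genes of the lists were matched by symbol or by a synonym in RefSeq.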

Additional observations from a re-analysis of the deposited data

How the results depend on the processing

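None of the 5 measured genes passed the threshold in any fit that changed the filter, the starting values, the moderation or the pairing or left out 1 animal. The 5 genes called over the whole table became 1 with detection on all 8 arrays, 1 without variance moderation, 10 with an intensity trend and robust priors, and 3 to 519 when 1 animal was left out (396 without XEO,Sry replicate 4, 519 without XE,Z2O,Sry replicate 4, and 3 without XEO,Sry replicate 1 or XE,Z2O,Sry replicate 1 or 3). Leaving out both animals numbered 4, chosen after seeing their pachytene marker values, gave 1610 genes (19.3%), and 1 of the 5, Stag3, then passed at -0.48 (adjusted p = 0.0343 by limma). The count of the 5 genes whose genotypes did not overlap, 0 with all animals, was 0 to 1 with 1 animal left out (Rec8, Syce2, Smc1b or Stag3, depending on the animal) and 2, Rec8 and Stag3, without both animals numbered 4. Fewer animals separate more easily, and the share of all genes without overlap was not counted for these omissions. Nothing is therefore read from these counts. A term for replicates 1 and 2 against 3 and 4, also added after seeing the data, gave 19 genes, with adjusted p = 0.0773 for Smc1b and 0.0826 for Rec8 by limma. Deviations of same-numbered animals correlated at 0.43 and 0.33 for replicates 1 and 3 and at -0.23 and -0.42 for replicates 2 and 4, so the numbers were not taken as pairs, and the fit with the replicate number as a block called 1 gene, with 0.231 as the adjusted p of both Rec8 and Smc1b. With 1 animal left out the difference of Sycp1 took either sign (-0.13 to 0.14), as did that of Smc1b minus Smc1a (-0.14 to 0.0922), and Stag3 minus Stag2 ran between -1.11 and -0.51. The detection filter decided which 2 pairs were compared but does not enter their values, and it was not varied for them. The causes of these changes were not tested, and 4 animals per genotype limit the precision.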
